A study of Mus musculus with 4 samples.

Results

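Chemokines are small secreted proteins that direct the movement of cells, and their receptors are proteins of the cell surface that signal through G proteins. CC and CXC ligands are named for the spacing of their first cysteines, and many of them are encoded in clusters. Stromal cells such as fibroblasts secrete several of them on contact with cytokines, and Cxcl12 with its receptor Cxcr4 holds blood stem cells in the bone marrow. The genes described here are the chemokine ligands and receptors of the mouse, taken as every non-control probe of the arrays whose gene name is Ccl or Cxcl with a number, or Ccr or Cxcr with a number. The rule used names only and gave 57 probes of 46 gene names among 41174 gene probes. Of these gene names, 11 had a pair of probes and the others had 1 probe each.

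RNA was measured on 4 two-colour Agilent whole-genome oligonucleotide arrays. On 2 arrays the red dye marked a clone of induced pluripotent stem cells (iPS cells), harvested 30 days after transduction, and on the other 2 it marked mouse embryonic fibroblasts (MEFs), taken after several passages. Green on all 4 arrays came from CGR8.8, a line of embryonic stem cells (ES cells). Leukemia inhibitory factor at 1000 IU/ml was in the medium of iPS and ES cells. The labels name 1 iPS clone and do not give the strain, the age of the embryos or the transduced factors. Replication is labelled biological for iPS cells and for MEFs, but what was grown or extracted separately is not stated. The p-values therefore measure only how far these samples spread, and that spread may be technical. Because ES cells were always green and dyes were not swapped, a dye effect of a probe stays in a ratio over ES cells and cancels between iPS cells and MEFs. Values below are log2 ratios after background correction and normalization, with the fit's standard error (SE) from limma (n = 2 arrays in each group). A probe was called higher or lower at a Benjamini-Hochberg adjusted p under 0.05 over all 27701 probes tested and a change of at least 2-fold. The arrays of a group correlated at 0.9921 (iPS) and 0.9889 (MEF) over all tested probes. The labelled cell types were checked by their markers. In iPS cells against MEFs, 8 of 8 pluripotency genes were called higher and 8 of 8 fibroblast genes lower. Against ES cells, 6 of the 8 pluripotency genes were called higher and 1 lower in iPS cells, and 8 were called lower in MEFs. Their summed normalized intensity was 300800 and 296600 in iPS cells, 2380 and 2650 in MEFs, and 63930 to 117800 in ES cells. ES cells thus read below iPS cells in this sum.

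The promoters of 4 members are shown, from the RefSeq table of build GRCm38.p6, each running from 250 bases before the start of the gene to 50 bases after it. Cxcl10 (chr5:92348840-92349139, - strand) was the lowest member against ES cells in both other RNAs, Cxcl1 (chr5:90890995-90891294, + strand) was lower in iPS cells than in both other RNAs, Cxcl12 (chr6:117168285-117168584, + strand) was called lower in iPS cells and higher in MEFs by its brighter probe, and Ccl8 (chr11:82114935-82115234, + strand) was detected in MEFs alone. Capitals mark matches on either strand to a kappaB-type motif (GGGA, then 4 bases of any kind, then CC), bound by NF-kappaB factors, or to an interferon response element (GAAA, 2 bases of any kind, GAAA), bound by interferon regulatory factors.
Cxcl10: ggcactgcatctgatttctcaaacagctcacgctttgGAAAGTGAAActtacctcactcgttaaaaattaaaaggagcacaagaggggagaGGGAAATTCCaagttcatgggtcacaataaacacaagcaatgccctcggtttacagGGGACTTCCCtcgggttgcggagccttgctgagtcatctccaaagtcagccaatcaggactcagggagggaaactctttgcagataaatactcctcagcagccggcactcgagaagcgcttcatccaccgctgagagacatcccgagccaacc
Cxcl1: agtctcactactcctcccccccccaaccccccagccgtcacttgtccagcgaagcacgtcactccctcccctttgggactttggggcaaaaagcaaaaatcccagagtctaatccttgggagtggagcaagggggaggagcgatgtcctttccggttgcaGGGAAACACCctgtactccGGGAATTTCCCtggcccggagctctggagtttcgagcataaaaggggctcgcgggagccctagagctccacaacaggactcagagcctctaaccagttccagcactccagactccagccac
Cxcl12: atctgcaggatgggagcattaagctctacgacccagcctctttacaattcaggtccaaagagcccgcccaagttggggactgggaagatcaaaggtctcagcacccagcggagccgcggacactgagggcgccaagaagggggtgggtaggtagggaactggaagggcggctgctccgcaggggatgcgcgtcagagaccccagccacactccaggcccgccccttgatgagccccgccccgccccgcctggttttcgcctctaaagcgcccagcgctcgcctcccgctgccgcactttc
Ccl8: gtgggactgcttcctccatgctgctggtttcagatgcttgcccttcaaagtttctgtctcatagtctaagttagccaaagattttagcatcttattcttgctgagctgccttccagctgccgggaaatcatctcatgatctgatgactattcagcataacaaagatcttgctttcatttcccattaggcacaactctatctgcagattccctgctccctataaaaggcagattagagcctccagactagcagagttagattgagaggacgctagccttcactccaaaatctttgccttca
The Cxcl10 window held the interferon element at -213 and kappaB-type matches at -159 and -103, counted from the start of the gene. The Cxcl1 window held kappaB-type matches at -90, -71 and -70, the last pair overlapping, and no interferon element. The letters of neither motif were found in the Cxcl12 or the Ccl8 window. Among all 32851 promoter windows of the table, 20.7% held a kappaB-type match and 3.44% the interferon element. Among the 37 windows of members in the table, 17 held the kappaB-type motif and 3, those of Ccl19, Cxcl10 and Cxcl14, the interferon element. These are counts of windows and not of genes: Ccl25, Ccl27 and Ccr6 gave more than a single window each. A pair of Ccl27 windows overlapped and shared the same kappaB-type match. Members without a window included Ccl2, Ccl7, Cxcl5, Cxcl11 and Cxcl16. No motif of one kind overlapped one of the other kind in these windows.

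Fewer chemokine probes were detected in iPS cells than in MEFs. A probe counted as detected in an RNA when it was well above background on every array of that RNA. By that measure 21 of 57 probes (36.84%) were detected in iPS cells, 32 (56.14%) in MEFs and 24 (42.11%) in ES cells, while of all gene probes 60.28% were detected in iPS cells, 59.61% in MEFs and 60.18% in ES cells. CC ligands were detected with 9 of 25 probes in iPS cells, 18 in MEFs and 10 in ES cells. CXC ligands were detected with 7 of 15 probes in iPS cells, 10 in MEFs and 8 in ES cells. CC receptors were mostly dark, with 2 of 12 probes detected in iPS cells, 2 in MEFs and 3 in ES cells. In all 3 RNAs together 16 probes were detected, in MEFs alone 8, and in none of them 21. Of all 41174 gene probes the counts were 21740, 1209 and 13454 in the same order. The 8 probes detected in MEFs alone were those of Ccl3, Ccl6, Ccl8, Ccl9, Ccl11, Ccl12 and Cxcl5 and the first probe of Ccl5 (A_51_P485312), which was also above background on 2 of the 4 ES channels.

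**Figure D1:**
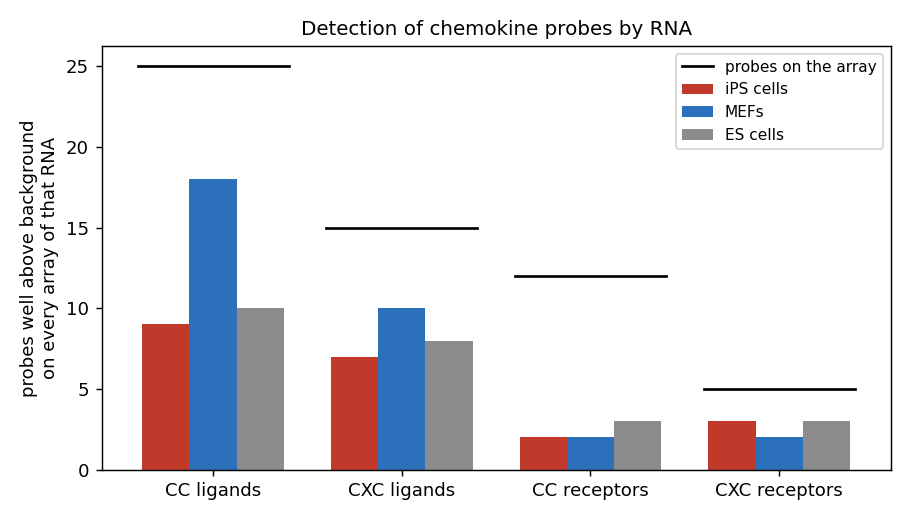
Probes well above background on every array of an RNA (vertical axis, number of probes) by class, for iPS cells, MEFs and ES cells; black lines give the number of probes on the array. CC ligands show 9 probes in iPS cells, 18 in MEFs and 10 in ES cells.

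A probe was tested when it was detected in at least 1 RNA and had a value on all 4 arrays, which left 36 member probes of 30 genes. Genes with no tested probe included Ccl1, Ccl4, Ccl22, Ccl24, Ccl28, Ccr1, Ccr2, Ccr4, Ccr8, Ccr9, Ccr10, Cxcl2, Cxcl9, Cxcl13 and Cxcl15. Being not well above background on these arrays sets a bound on these genes and does not show that they were silent. No member probe was saturated.

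In iPS cells over ES cells, 3 of the 36 probes were called higher, where 8.00% of all tested probes were, and 11 were called lower, where 10.7% of all tested probes were. The median log2 ratio of the members was -0.12, against -0.01 over all tested probes. In MEFs over ES cells, 13 probes were called higher (12.6% of all tested probes) and 4 lower (12.5% of all), with a median of 0.42 for the members and -0.01 for all probes. In iPS cells over MEFs, 1 probe was called higher (15.3% of all) and 14 lower (17.6% of all), with a median of -0.71 for the members and 0.02 for all probes. The 3 comparisons share the ES channel or arrays, so they are not independent of each other. In all, 20 probes of 17 genes were called in at least 1 comparison. These counts depend on how the background correction was fitted: with normexp fitted over all spots, marked ones included, limma called 5 member probes in iPS cells over ES cells, 0 in MEFs over ES cells (3 at an unadjusted p under 0.05) and 3 in iPS cells over MEFs. Over all tested probes the same setting called 13.4%, 0.722% and 11.15% in the same order of comparisons.

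**Figure D2:**
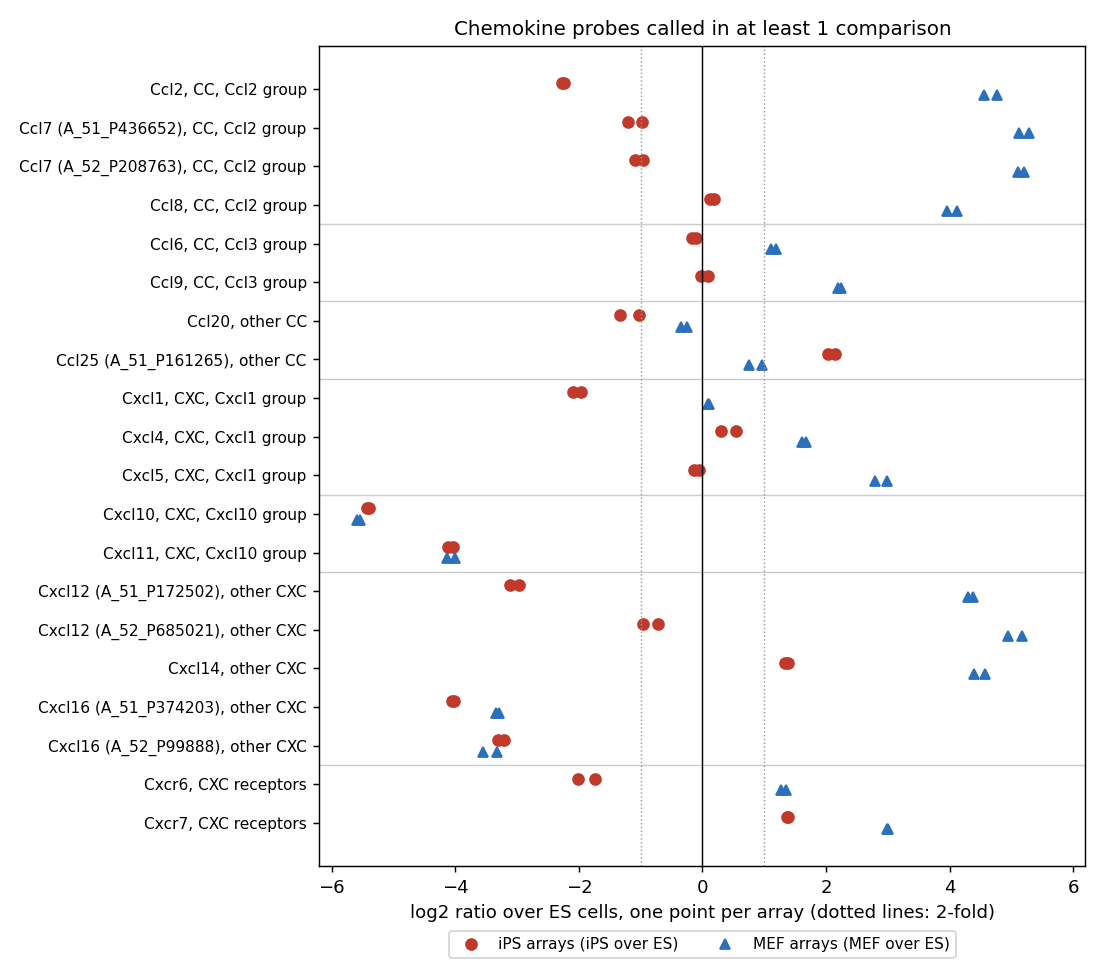
Log2 ratio over ES cells (horizontal axis) of the 20 probes called in at least 1 comparison, grouped by role; circles are the 2 iPS arrays and triangles the 2 MEF arrays, and dotted lines mark 2-fold. Ccl2, Ccl7 and Cxcl12 lie left of 0 on the iPS arrays and near 4 to 5 on the MEF arrays, and Cxcl10 and Cxcl11 lie at -4 or below on all 4 arrays.

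The ES channel itself was not equal between the array pairs for a few of these probes. Ccl2 had a green intensity over local background of 479 and 474 on the iPS arrays, against 1455 and 1306 on the MEF arrays. Cxcl14 had 105.5 on one iPS array and just under it on the other, against 654 and 550 on the MEF arrays. The same RNA source was thus read at values 2.78-fold apart for Ccl2 and 5.49-fold apart for Cxcl14 after scaling each array to its median, while arrays of one pair were close to each other. The first probe of Ccl7 (A_51_P436652) differed 1.99-fold in the same direction and the second 1.36-fold. The other 20 of 24 member probes detected in ES cells differed by at most 1.24-fold, and Cxcl10 by 1.04-fold. In the red channel, Ccl2 had 81.0 and 88.95 on the iPS arrays and 73250 and 59620 on the MEF arrays, and Cxcl14 had 472 and 519 on the iPS arrays and 27840 and 21050 on the MEF arrays. Cxcl12 had red values of 19550 and 18650 on the MEF arrays, and its green values were 534 and 579 on the iPS arrays and 492 and 558 on the MEF arrays. Over all 24778 probes detected in ES cells, 83 differed by more than 2-fold between the pairs. Over the 99 of them at least 16-fold higher in MEFs than in ES cells, the ES channel of the iPS arrays lay lower by a median of -0.24 on the log2 scale. The part of the red signal or of the ES cultures in this gap was not tested, and it lies inside the ratios of Ccl2, Ccl7 and Cxcl14 given below. Set over the ES reading of the MEF arrays, with no test, the log2 ratio of iPS cells was -1.09 for Cxcl14, opposite in sign to that over its own arrays, and -3.74 for Ccl2 and -2.08 and -1.47 for the Ccl7 probes.

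**Figure D3:**
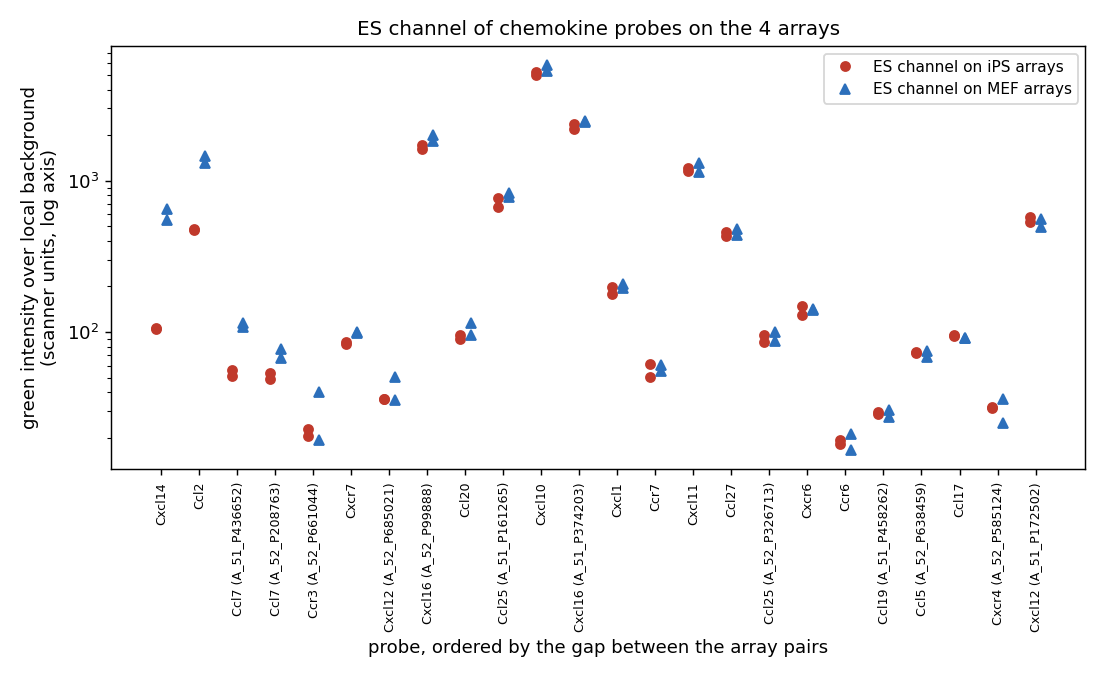
Green intensity over local background (scanner units, log axis) of the 24 member probes detected in ES cells, ordered by the gap between array pairs; circles are the ES channel on the 2 iPS arrays and triangles the ES channel on the 2 MEF arrays. The pairs stand apart for Cxcl14, Ccl2 and Ccl7 and lie close together for most others.

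The CC ligands that attract monocytes and eosinophils lie within 140 kb on chromosome 11 (mm8, from the probe of Ccl2 to that of Ccl1). Of their 6 tested probes, 0 were higher and 3 lower in iPS cells than in ES cells, 4 were higher and 0 lower in MEFs than in ES cells, and 0 were higher and 4 lower in iPS cells than in MEFs. Ccl2, the main ligand of the monocyte receptor Ccr2, was measured by a probe at chr11:81853343-81853402. Its log2 ratios over ES cells were -2.28 and -2.25 on the iPS arrays, against 4.56 and 4.76 on the MEF arrays. The groups lay on opposite sides of ES cells and did not overlap. Ccl2 fell in iPS cells by 2.26 ± 0.0596 on the log2 scale (4.80-fold lower than in ES cells, adjusted p = 5.88e-08), and rose in MEFs by 4.66 ± 0.0596 (25.3-fold, adjusted p = 4.2e-09). Between iPS cells and MEFs the log2 ratio (iPS over MEF) was -6.92 ± 0.0843 (adjusted p = 4.35e-09). The probe was printed 10 times on each array, and its spots ran from -2.40 to -2.15 and from -2.44 to -1.87 on the iPS arrays and from 4.35 to 4.73 and from 4.66 to 4.83 on the MEF arrays, so the spots of one array spread far less than the groups.

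Ccl7, which also attracts monocytes, was read by a pair of probes at chr11:81863349-81863408 and chr11:81863197-81863256. The first gave -0.98 and -1.21 on the iPS arrays and 5.13 and 5.29 on the MEF arrays, and the second gave -0.97 and -1.09 on the iPS arrays and 5.11 and 5.21 on the MEF arrays. Both probes placed Ccl7 below ES cells in iPS cells and far above them in MEFs. In MEFs it was 37.0-fold and 35.8-fold higher than in ES cells (log2 5.21 ± 0.0699 and 5.16 ± 0.054, adjusted p = 4.4e-09 and 4.07e-09). In iPS cells Ccl7 was not well above background, which made it at least 1.89-fold and 1.84-fold lower than in ES cells, with fitted log2 ratios of -1.09 (adjusted p = 5.31e-06) and -1.03 (adjusted p = 1.84e-06). These values lie close to the 2-fold limit: without the second iPS array they were -0.98 and -0.97 and were no longer called. Between iPS cells and MEFs the log2 ratios (iPS over MEF) were -6.30 and -6.19.

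Ccl8, a ligand of the receptor Ccr8 in the mouse, was seen well above background in MEFs alone (probe at chr11:81932801-81932860). Its log2 ratios over ES cells were 0.12 and 0.19 on the iPS arrays, against 3.95 and 4.12 on the MEF arrays. Ccl8 was at least 16.4-fold higher in MEFs than in ES cells (fitted log2 4.04 ± 0.0578, adjusted p = 5.28e-09), and in iPS cells over MEFs its log2 ratio was -3.89 (adjusted p = 2.06e-08). Ccl11, the eosinophil attractant eotaxin, had ratios of -0.02 and 0.01 on the iPS arrays and 0.75 and 0.84 on the MEF arrays. Ccl12, a close relative of Ccl2 in the mouse, had 0.13 and 0.03 on the iPS arrays and 0.70 and 0.79 on the MEF arrays. Neither reached 2-fold in MEFs over ES cells, with fitted log2 ratios of 0.80 and 0.74, and the fit's offset of 50 units compresses the ratios of dim probes. On the scanner software's own log ratios, which carry no such offset, both were called higher in MEFs than in ES cells, with log2 ratios of 3.79 for Ccl11 (adjusted p = 0.000111) and 3.82 for Ccl12 (adjusted p = 0.000182), as was Ccl3 (adjusted p = 0.00125).

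The second CC cluster of chromosome 11 spans 139 kb and holds the macrophage inflammatory protein genes. Of its 5 tested probes, 0 were called in iPS cells against ES cells, 2 were called higher and 0 lower in MEFs over ES cells, and 0 were higher and 2 lower in iPS cells over MEFs. Ccl9, a ligand of Ccr1 in the mouse, had ratios of 0.08 and -0.03 on the iPS arrays, against 2.24 and 2.20 on the MEF arrays. Ccl6, also a ligand of Ccr1, had -0.11 and -0.17 on the iPS arrays, against 1.19 and 1.11 on the MEF arrays. Both were detected in MEFs alone, and the iPS arrays lay near 0. Ccl9 (chr11:83390916-83390975) was at least 4.66-fold higher in MEFs than in ES cells (log2 2.22 ± 0.0511, adjusted p = 2.47e-08), and Ccl6 (chr11:83404690-83404749) at least 2.22-fold (log2 1.15 ± 0.0498, adjusted p = 5.02e-07). The fitted log2 ratios of iPS cells over MEFs were -2.19 for Ccl9 (adjusted p = 1.48e-07) and -1.29 for Ccl6 (adjusted p = 2.02e-06). Ccl3 and both probes of Ccl5, which attract T cells and macrophages, were not called, with log2 ratios between -0.41 and 0.08 in iPS cells over ES cells and between 0.24 and 0.44 in MEFs over ES cells. On the software's log ratios both Ccl5 probes were called lower in iPS cells than in MEFs, at -3.65 and -1.335. The first was also called higher in MEFs (1.14) and lower in iPS cells (-2.51) than in ES cells.

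Macrophages make several of these CC ligands, so their markers were read on the same arrays. Of 13 marker genes, 5 were detected in iPS cells, 12 in MEFs and 6 in ES cells, with Itgam not well above background in any of them. Their summed normalized intensity was 2267 and 2299 in iPS cells, 8963 and 8505 in MEFs, and 2149 to 2236 in ES cells. Lyz2 alone made this difference: without it the sums were 2193 and 2238 in iPS cells, 1980 and 1957 in MEFs, and 1915 to 2137 in ES cells. In MEFs over ES cells 5 of 12 tested markers were called higher and 1 lower. Of all other genes, read by their brightest probes, 13.7% were called higher and 13.8% lower. Lyz2 (log2 4.87) and Adgre1 (log2 1.36) were among the markers called higher, and Cd68 (log2 -1.69) was lower, while 6 markers were not called. Ptprc, found on nearly all blood cells, was detected in MEFs with a log2 ratio of 0.24. The part of such cells in the CC ligand values was not tested, and in bulk RNA fewer cells of a type cannot be told apart from less RNA per cell.

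Among the other CC ligands, 1 of 8 tested probes was called higher and 1 lower in iPS cells than in ES cells, 0 were called in MEFs over ES cells, and 1 was called higher in iPS cells than in MEFs. Ccl25, the ligand of Ccr9 that draws lymphocyte precursors to the thymus, was the 1 member called higher in iPS cells than in MEFs, against 4 probes on the software's log ratios, which added Ccl21c, Cxcr3 and the second Ccl25 probe. Its brighter probe (chr8:4359916-4359975) gave 2.03 and 2.15 on the iPS arrays, against 0.97 and 0.76 on the MEF arrays. By the brighter probe both RNAs lay above ES cells and the iPS arrays lay above the MEF arrays. This probe was 4.25-fold higher in iPS cells than in ES cells (log2 2.09 ± 0.0649, adjusted p = 1.32e-07) and 2.33-fold higher in iPS cells than in MEFs (log2 1.22 ± 0.0918, adjusted p = 1.14e-05). The dimmer probe, whose sequence spans an intron (chr8:4354202-4357650), gave 0.54 and 0.70 on the iPS arrays and -0.05 and -0.28 on the MEF arrays. It had the same order of iPS cells over MEFs (log2 0.79, adjusted p = 0.000228) and was not called, so the probes of Ccl25 differed in size in that comparison. In MEFs over ES cells, the brighter probe had a log2 ratio of 0.86 and was called at 1.21 when arrays were centred on their median in place of loess. The dimmer probe had -0.165 in MEFs over ES cells (adjusted p = 0.0639), so the probes differed in sign there.

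Ccl20, the ligand of Ccr6, fell in iPS cells, where it was well above background on 1 of 2 arrays (chr1:82997949-82998008). Its ratios were -1.02 and -1.33 on the iPS arrays, against -0.25 and -0.35 on the MEF arrays. It was at least 2.26-fold lower in iPS cells than in ES cells (log2 -1.18 ± 0.0779, adjusted p = 6.36e-06) and was not called in the other comparisons. Ccl17, a ligand of Ccr4, stood just under the fold limit, 1.998-fold lower in iPS cells than in ES cells (adjusted p = 2.92e-05), and was not called. On the software's log ratios Ccl17 was called lower in iPS cells than in ES cells, at -1.95, and than in MEFs, at -1.545. The remaining tested CC ligands, Ccl19, Ccl21c and Ccl27, were not called, with log2 ratios of -0.08 to 0.38 in iPS cells over ES cells and -0.33 to 0.54 in MEFs over ES cells. These 3 genes have near-identical copies in the mouse genome, so the copy measured is uncertain. On the software's log ratios both Ccl19 probes were called higher in MEFs than in ES cells, at 1.29 and 1.14. The first of them was called lower in iPS cells than in MEFs, at -1.05. Ccl21c was called higher in iPS cells than in ES cells, at 2.14.

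The neutrophil-attracting CXC ligands and platelet factor 4 lie within 144 kb on chromosome 5. Of 3 tested probes, 0 were higher and 1 lower in iPS cells than in ES cells, 2 were higher and 0 lower in MEFs than in ES cells, and 0 were higher and 3 lower in iPS cells than in MEFs. Cxcl1, a ligand of the neutrophil receptor Cxcr2, had ratios of -2.09 and -1.97 on the iPS arrays, against 0.09 and 0.11 on the MEF arrays (chr5:91968019-91968078). MEFs and ES cells thus lay close together for Cxcl1, and iPS cells lay below both. Cxcl1 was not well above background in iPS cells and was at least 4.09-fold lower than in ES cells (log2 -2.03 ± 0.0516, adjusted p = 5.02e-08) and at least 4.36-fold lower than in MEFs (log2 -2.13 ± 0.0729, adjusted p = 1.78e-07). In MEFs over ES cells its log2 ratio was 0.10 ± 0.0516 (adjusted p = 0.112).

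Cxcl5, another ligand of Cxcr2, was detected in MEFs alone (chr5:91836379-91836438). It gave -0.06 and -0.13 on the iPS arrays, against 2.98 and 2.79 on the MEF arrays. It was at least 7.40-fold higher in MEFs than in ES cells (log2 2.89 ± 0.0598, adjusted p = 1.61e-08), and its log2 ratio in iPS cells over MEFs was -2.98 ± 0.0845 (adjusted p = 7.26e-08). Cxcl4, which RefSeq names Pf4, the platelet factor 4 stored in platelet granules, gave 0.55 and 0.29 on the iPS arrays, against 1.67 and 1.62 on the MEF arrays (chr5:91848449-91848508). It was below the detection limit in ES cells on every array and was detected in iPS cells and in MEFs. It was at least 3.0-fold higher in MEFs than in ES cells (log2 1.64 ± 0.0672, adjusted p = 3.73e-07), and iPS cells were 2.33-fold below MEFs (log2 -1.22, adjusted p = 1.37e-05).

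The interferon-induced CXC ligands went the same way in both RNAs. Cxcl10 and Cxcl11, which draw activated T cells through the receptor Cxcr3, lie within 38 kb of each other and of Cxcl9 on chromosome 5, and both fell in iPS cells and in MEFs relative to ES cells. Cxcl10 (chr5:93421955-93422014) had ratios of -5.40 and -5.43 on the iPS arrays, against -5.60 and -5.55 on the MEF arrays. Its green intensity in ES cells was 5028 and 5263 on the iPS arrays and 5339 and 5796 on the MEF arrays, while its red intensity was 100 and 113 in iPS cells and 122.5 and 104.5 in MEFs. ES cells therefore carried the bright signal on every array, and both other RNAs were dim but detected. Cxcl10 was 42.7-fold lower in iPS cells than in ES cells (log2 -5.42 ± 0.0471, adjusted p = 3.34e-09) and 47.7-fold lower in MEFs (log2 -5.58 ± 0.0471, adjusted p = 3.43e-09). Its log2 ratio of iPS cells over MEFs was 0.16 ± 0.0666 (adjusted p = 0.0599).

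Cxcl11 had ratios of -4.11 and -4.05 on the iPS arrays, against -4.14 and -4.00 on the MEF arrays (chr5:93436297-93436448). It was 16.9-fold lower in iPS cells than in ES cells (log2 -4.08 ± 0.0546, adjusted p = 6.15e-09) and 16.8-fold lower in MEFs (log2 -4.07 ± 0.0546, adjusted p = 4.4e-09). Cxcl16, a membrane-bound ligand of Cxcr6, followed with a pair of probes. The first (chr11:70272214-70274955, across an intron) gave -4.02 and -4.05 on the iPS arrays, against -3.35 and -3.30 on the MEF arrays. The second (chr11:70270473-70270532) gave -3.21 and -3.31 on the iPS arrays, against -3.56 and -3.33 on the MEF arrays. Cxcl16 was 16.4-fold and 9.59-fold lower in iPS cells than in ES cells (adjusted p = 5.09e-09 and 1.93e-08), and 10-fold and 10.9-fold lower in MEFs than in ES cells (adjusted p = 5.28e-09 and 1.23e-08). The probes disagreed on the order of iPS cells and MEFs, at log2 -0.71 (adjusted p = 3.92e-05, under 2-fold) and 0.18 (adjusted p = 0.116). Dye and RNA cannot be told apart in these ratios, as ES cells were green on every array.

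Cxcl12 was called lower in iPS cells than in MEFs by both of its probes. This ligand of Cxcr4 and Cxcr7 holds stem and progenitor cells in place and is made by stromal cells. Its brighter probe (chr6:117146828-117146887) gave -3.12 and -2.97 on the iPS arrays, against 4.30 and 4.38 on the MEF arrays. Its dimmer probe (chr6:117140075-117140134) gave -0.72 and -0.97 on the iPS arrays, against 4.94 and 5.18 on the MEF arrays. Both probes placed MEFs above and iPS cells below ES cells, with no overlap. Cxcl12 was 20.3-fold and 33.3-fold higher in MEFs than in ES cells (log2 4.34 ± 0.0564 and 5.06 ± 0.0791, adjusted p = 4.25e-09 and 6.44e-09). In iPS cells over ES cells it was 8.23-fold lower by the brighter probe (log2 -3.04 ± 0.0564, adjusted p = 1.4e-08), while the dimmer one, not well above background in iPS cells, had -0.84 (adjusted p = 4.3e-05) and was not called at 2-fold. With an offset of 16 units the dimmer probe was called, at -1.58, and on the software's log ratios it was -3.75. The log2 ratios of iPS cells over MEFs were -7.38 ± 0.0797 (167-fold lower, adjusted p = 3.96e-09) and -5.90 ± 0.112 (at least 57.8-fold lower, adjusted p = 1.43e-08).

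Cxcl14, a ligand made by epithelia and stroma at rest, was called higher than in ES cells in both RNAs, though for iPS cells the sign depends on which arrays give the ES reading. It gave 1.34 and 1.39 on the iPS arrays, against 4.39 and 4.57 on the MEF arrays (chr13:56298339-56298398). It rose 2.57-fold in iPS cells (log2 1.36 ± 0.0573, adjusted p = 5.87e-07) and 22.3-fold in MEFs (log2 4.48 ± 0.0573, adjusted p = 4.2e-09), and in iPS cells over MEFs its log2 ratio was -3.12 ± 0.0811 (adjusted p = 4.97e-08). Over the ES reading of the other array pair the log2 ratios were -1.09 in iPS cells and 6.94 in MEFs, and without the gap between readings that of iPS cells over MEFs was -5.57.

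Of the receptors, 7 of 17 probes were tested and 2 were called. The decoy receptor Cxcr7, which RefSeq names Ackr3 and which takes up Cxcl12, gave 1.37 and 1.38 on the iPS arrays, against 3.0 and 2.99 on the MEF arrays (chr1:92046399-92046458). It rose 2.60-fold in iPS cells over ES cells (log2 1.38 ± 0.046, adjusted p = 1.86e-07) and 7.98-fold in MEFs over ES cells (log2 3.0 ± 0.046, adjusted p = 6.18e-09), and was 3.07-fold lower in iPS cells than in MEFs (adjusted p = 4e-07). Cxcr6, the receptor of Cxcl16 on T cells, gave -1.73 and -2.01 on the iPS arrays, against 1.35 and 1.27 on the MEF arrays (chr9:123660185-123660244). It rose 2.47-fold in MEFs (log2 1.31 ± 0.0715, adjusted p = 1.72e-06). It was at least 3.48-fold lower in iPS cells than in ES cells (adjusted p = 3.59e-07) and at least 8.40-fold lower than in MEFs (log2 -3.18 ± 0.101, adjusted p = 1.25e-07).

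Cxcr4, the signalling receptor of Cxcl12, was dim. Its tested probe (chr1:130416048-130416107) gave -0.19 and -0.14 on the iPS arrays, against -0.33 and -0.37 on the MEF arrays, and was detected in iPS and ES cells and not in MEFs. It was not called in any comparison, and its second probe was not tested. On the software's log ratios Cxcr4 was called lower in MEFs than in ES cells, at -1.51, Cxcr3 higher in iPS cells than in ES cells, at 2.89, and than in MEFs, at 2.44, and Ccr7 lower than in ES cells in iPS cells, at -2.56, and in MEFs, at -3.75. Cxcr3, the receptor of Cxcl10 and Cxcl11, was detected in iPS cells alone and had log2 ratios of 0.53 and 0.43 on the iPS arrays and -0.004 and 0.17 on the MEF arrays. Ccr7, which guides cells to lymph nodes, was detected in ES cells alone and gave -0.60 and -0.99 on the iPS arrays and -1.07 and -0.81 on the MEF arrays. Ccr3 and Ccr6 were not called, with log2 ratios between -0.10 and 0.27 in iPS cells and in MEFs over ES cells.

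Read as pairs of ligand and receptor, Cxcl12 was lower in iPS cells than in MEFs, as was its decoy receptor Cxcr7, while Cxcr4 lay at a log2 ratio of 0.19 (adjusted p = 0.0361, under 2-fold). For Cxcl16 and Cxcr6, the ligand was lower than in ES cells in both RNAs, and the receptor was lower in iPS cells and higher in MEFs. For Ccl2, Ccl25 and Ccl20, probes of the receptors Ccr2 and Ccr9 were not tested, and Ccr6 was not called. A total of 5 probes, those of Ccl2, Ccl7, Cxcl12 (the brighter) and Cxcr6, were called lower in iPS cells and higher in MEFs relative to ES cells. Cxcl14 and Cxcr7 were called higher in both, Cxcl14 with the dependence on the ES reading given above. Cxcl10, Cxcl11 and Cxcl16 were called lower in both. Ccl6, Ccl8, Ccl9, Cxcl4 and Cxcl5 and the dimmer Cxcl12 probe were called higher in MEFs only among the ratios over ES cells. On the software's log ratios Cxcl4 was also called higher in iPS cells than in ES cells, at 2.77. Ccl6 (-1.46), Cxcl5 (-1.25) and the dimmer Cxcl12 probe (-3.75) were called lower there.

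Genes that act upstream of chemokines, or that bind and read them, were counted from lists with 1 probe per gene, the brightest. Read the same way, 9.09% of all other genes were called higher and 11.9% lower in iPS cells than in ES cells, 13.7% higher and 13.8% lower in MEFs than in ES cells, and 17.0% higher and 18.8% lower in iPS cells than in MEFs, and no list was tested against these shares. The first list held upstream cytokines, their receptors and signalling adaptors, and also the receptor antagonist gene Il1rn (log2 2.41 in MEFs over ES cells). Of its 23 tested genes, 0 were higher and 1 lower in iPS cells than in ES cells. In MEFs 11 were higher and 0 lower than in ES cells, and 1 was higher and 13 lower in iPS cells than in MEFs. In MEFs over ES cells the log2 ratio was 3.33 for Il6, 3.23 for the interleukin-1 receptor Il1r1 and 3.12 for the tumour necrosis factor receptor Tnfrsf1a. The cytokine genes Il1a, Il1b and Tnf, named after their values were seen, were not well above background in any of the RNAs. Of 13 NF-kappaB factors and inhibitors, 1 was higher and 4 lower in iPS cells than in ES cells, 1 was higher and 2 lower in MEFs than in ES cells, and 1 was higher and 5 lower in iPS cells than in MEFs. Tnfaip3, an inhibitor that NF-kappaB itself induces, had log2 -3.0 in iPS cells over ES cells, and Relb had -1.83 in iPS cells and -1.50 in MEFs. Of 11 genes of interferon-regulated transcription, 0 were higher and 4 lower in iPS cells than in ES cells, 2 were higher and 1 lower in MEFs than in ES cells, and 0 were higher and 4 lower in iPS cells than in MEFs. Irf1, an activator of interferon-response genes, was lower than in ES cells in both RNAs, at log2 -3.14 ± 0.0481 in iPS cells (adjusted p = 7.8e-09) and -3.28 ± 0.0481 in MEFs (adjusted p = 5.47e-09).

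Of 16 genes for proteins that hold or cut chemokines at the cell surface, 1 was higher and 6 lower in iPS cells than in ES cells, 10 were higher and 1 lower in MEFs than in ES cells, and 1 was higher and 13 lower in iPS cells than in MEFs. The peptidase Dpp4, which trims Cxcl12 and other chemokines, had log2 3.63 in iPS cells over ES cells and 3.90 over MEFs. Cd44, a receptor of hyaluronan, had log2 -2.21 in iPS cells and 3.58 in MEFs over ES cells. Of 24 genes of receptor signalling, 2 were higher and 6 lower in iPS cells than in ES cells, 5 were higher and 3 lower in MEFs than in ES cells, and 3 were higher and 10 lower in iPS cells than in MEFs. Rgs16, which shortens G-protein signals, had log2 -4.69 in iPS cells over MEFs, and the arrestin gene Arrb2 had 2.63. Of 7 tested chemokine relatives with other names, 0 were higher and 2 lower in iPS cells than in ES cells, 1 was higher and 0 lower in MEFs than in ES cells, and 0 were higher and 2 lower in iPS cells than in MEFs. The platelet chemokine Ppbp had log2 -1.64 in iPS cells and 2.25 in MEFs over ES cells, and Cx3cl1 had -1.72 in iPS cells over ES cells.

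**Figure D4:**
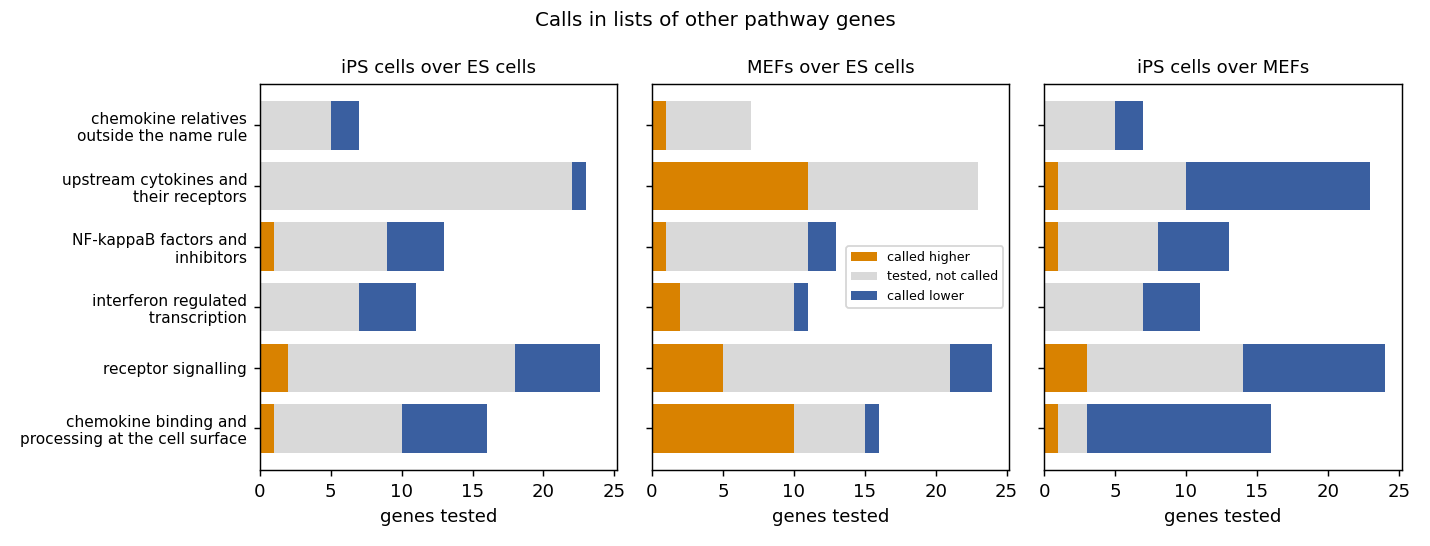
Number of tested genes (horizontal axis) in 6 lists of other pathway genes that were called higher, tested and not called, or called lower, with 1 panel per comparison. The list of upstream cytokines, their receptors and adaptors shows 11 higher calls in MEFs over ES cells and 13 lower calls in iPS cells over MEFs.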

How the data were processed

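Scans were quantified with Feature Extraction 10.5.1.1, per the file headers. The deposited files give mean and local background intensity of each spot in both channels, not normalized, and a log10 ratio of red over green that the software made from processed signals. The deposited table of log10 values equalled that ratio (largest difference 0) and was not needed apart from it. Probe coordinates are those of the array design (mm8).

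Mean intensities were corrected for background with normexp (offset 50, fitted on spots with no mark) and normalized within arrays by loess (span 0.3, control spots at weight 0) in limma 3.58.1 (R 4.3.3). Spots marked as feature outliers or with a non-uniform background ring were left out. Spots marked only for the brightness of that ring were kept, a choice made after the marks were seen, as leaving them out removes Cxcl1, Cxcl10 and Cxcl14. The spots of a probe were averaged, and 27701 probes detected in at least 1 RNA and measured on all 4 arrays were tested with lmFit and eBayes (residual degrees of freedom 2, prior 4.89), with Benjamini-Hochberg adjustment over all of them. A ratio over ES cells leaves out the ES cells' own spread, and all arrays lay on 1 slide, so position and group cannot be told apart. At-least folds set the bright group against the dim probe's own signal or, where that was lower, the lowest signal well above background on the array, from log2 values per channel after loess and Aquantile, and are open to dye bias. Where the dim probe's own signal was the higher of these, a bound over ES cells equals the fitted fold. No fold of iPS cells over MEFs is given where its bound exceeded the fitted one. The number of arrays limits the precision.

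Names came from the array files, and 55 of 57 member probes had an accession in the RefSeq table. Members called in at least 1 of the 3 comparisons are named, with per-array values for those called in 2 or more and for Cxcl12, Cxcr4, Ccl2, Cxcl1, Cxcl5 and Cxcl10; other tested members are given by name and range. Per-array values of Ccl11, Ccl12, Ccl20, Ccr7, Cxcr3 and the dimmer Ccl25 probe were added after their values were seen. From each pathway list, genes named are among the 4 called with the largest absolute log2 ratio in a comparison, apart from Il1rn, Il1a, Il1b and Tnf. One member is not reported here by name. Members and lists were chosen with earlier results of these data known.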

Additional observations from a re-analysis of the deposited data

Results flagged for a closer look

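For 5 probes iPS cells were called lower and MEFs higher than ES cells, and the difference itself passed the test in the limma fit. Between iPS cells and MEFs the log2 ratio (iPS over MEF) was -6.92 for Ccl2 (A_51_P286737), -6.30 and -6.19 for Ccl7 (A_51_P436652 and A_52_P208763), -7.38 for Cxcl12 (A_51_P172502) and -3.18 for Cxcr6 (A_51_P412027). Ccl7 and Cxcr6 were not well above background on either iPS array, so their fitted differences depend on the offset and are not measured sizes. For each of the 5 probes both iPS arrays were below 0 and both MEF arrays above 0. The probes of Ccl6, Cxcl1 and Cxcl5 and the dimmer Cxcl12 probe had these signs too. They were called lower in iPS cells than in MEFs, but not called in both ratios over ES cells. The ES channel differed between the array pairs for Ccl2 and Ccl7 and not for Cxcl12 and Cxcr6, where it was 1.1-fold and 1.03-fold apart.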

How the results depend on the processing

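Of 20 probes followed through the alternatives in each comparison, no called log2 ratio changed sign in any of 969 refitted values. Values near 0 that were not called did change sign. Of the 40 calls that were lost, 38 went with 1 setting, normexp fitted over all spots. Values of probes that a setting dropped were not refitted and were not counted as lost. That left 27 values with detection in both channels of all 4 arrays, where the other settings left 51 or 60. With normexp fitted over all spots limma called 5 chemokine probes for iPS cells over ES cells, 0 for MEFs over ES cells and 3 for iPS cells over MEFs. The reported counts were 14, 17 and 15. For MEFs over ES cells 3 of 36 had an unadjusted p under 0.05 with that setting. All tested probes lost calls too, with 13.4%, 0.722% and 11.15% called, against 18.7%, 25.1% and 32.9% as reported. On the array of MEF replicate 1, 14 spots had a local background above 500, up to 694663. On the software's log ratios 24, 25 and 26 probes were called in the same order of comparisons, where 33.6%, 41.4% and 49.9% of all tested probes were. With adjusted p under 0.05 at any fold 27, 31 and 30 were called, where 78.0%, 82.5% and 79.75% of all tested probes were. With detection in both channels of all 4 arrays 9, 8 and 5 of the 16 probes left were called, where 19.7%, 26.8% and 34.4% of all probes left were. Leaving out each array in turn gave 12 to 15, 17 to 18 and 15 to 16 calls, and the 2 calls lost were those of Ccl7 in iPS cells over ES cells without iPS replicate 2. The replicate block left 14, 17 and 15 calls. Same-numbered arrays did not deviate together (correlation -0.109), and the crossed replicate block, added after seeing the data, also left 14, 17 and 15 calls. Median centring moved the median of all probes to 0.14 and 0.17 on the log2 scale in iPS cells and MEFs over ES cells, and the share of higher calls among all called probes to 62.2% and 70.3%, against 42.8% and 50.3%. It left 3 higher and 11 lower chemokine calls in iPS cells over ES cells, and 14 higher and 4 lower in MEFs over ES cells. Leaving out also the spots marked for background brightness, added after seeing the data, left 11, 15 and 13 calls among 33 probes. Set over the ES reading of the other array pair, an alternative added after seeing the data and not tested, Cxcl14 in iPS cells over ES cells turned to -1.09; no other called ratio of these probes changed sign. With 2 arrays per group, dim probes have bounds only.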

Other observations

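Markers of further cell types were counted with the same fit. With the brightest probe per gene, 9.09% of all other genes were called higher and 11.9% lower in iPS cells than in ES cells. In MEFs over ES cells the shares were 13.7% higher and 13.8% lower. No marker list was tested against them. Of 10 lymphocyte genes, 6 were detected in iPS cells, 4 in MEFs and 5 in ES cells. Among the 6 tested, 1 was called higher and 0 lower in iPS cells than in ES cells, with 0 higher and 2 lower in MEFs than in ES cells. Lck, a kinase of T cells, had a log2 ratio of -3.0 in MEFs over ES cells. Of 8 endothelial genes, 5 were detected in iPS cells, 3 in MEFs and 5 in ES cells. Among the 6 tested, 2 were called higher and 1 lower in iPS cells than in ES cells, and 1 was called higher and 1 lower in MEFs than in ES cells. Relative to ES cells, Pecam1 (log2 2.09) and Tek (log2 1.02) were those higher in iPS cells. The growth factor receptor gene Kdr was lower both in iPS cells (log2 -4.10) and in MEFs (log2 -1.55). Emcn was the gene called higher in MEFs, at log2 5.07.

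ES cells carried some signal of fibroblast genes. All 8 fibroblast markers were detected in ES cells, against 4 of 8 in iPS cells and 8 of 8 in MEFs. Their summed normalized intensity was 2088 and 2076 in iPS cells, 463000 and 479000 in MEFs, and 21330 to 33080 in ES cells. ES readings of probes far brighter in MEFs differed between the array pairs, as given above, and these sums were not corrected for that. Of these markers 6 were called lower in iPS cells than in ES cells, with Col1a1 at log2 -5.77 and Col1a2 at log2 -4.58. Thy1 (log2 0.41) and Lum (log2 -0.66) were not called. The members that stood lower in iPS cells than in ES cells and higher in MEFs, namely Ccl2, Ccl7, Cxcl12 and Cxcr6, followed the same order of the 3 RNAs as the marker sums. The part of these members and the markers in each other was not tested.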
